A study of Mus musculus with 13 samples.

Results

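The Zfp36 family of mRNA decay factors was followed through 2 circadian cycles in mouse aorta. Its members here are the genes Zfp36, Zfp36l1 and Zfp36l2, and every probe set that the platform annotation assigns to one of these 3 genes was taken, which gave 5 of the 12422 probe sets of the array (3 of 8251 genes). The family was chosen from 24-h fits of these same arrays, by their amplitudes and peak times, so those values are given as a description, without a test. Tests are given for measures that did not enter that choice, apart from correlations over the pools, whose profiles contain the 24-h curves.

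The samples were aortae of c57/Bl6 mice. For 2 weeks all mice had 12 h of light a day and were dark for the other 12 h, and 36 h of constant darkness came before sampling, so no group was kept in light. Each sample was 1 pool of 6 aortae, and pools were taken every 4 h over 48 h, from circadian time (CT) 18 to CT62. There were 13 one-colour oligonucleotide arrays, 2 of them for CT18, which were averaged and counted as 1 pool, giving 12 pools. The labels do not say whether both CT18 arrays came from the same pool. Neither the age nor the sex of the mice is given in the sources used here. Each time point counts as 1 pool. Apart from the 2 CT18 arrays, its values have no replicate at the same clock hour except the pool 24 h earlier or later. In the text, "the second day" is CT42 to CT62 and "the first day" is CT18 to CT38. Where means of 2 pools are given, CT2 to CT22 name the phase, and the hours that had been dark before are called subjective night.

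Proteins of the Zfp36 family carry a pair of CCCH zinc fingers that bind AU-rich elements in the 3' untranslated regions of messages. They bring in the CCR4-NOT complex, which removes the poly(A) tail, and the message is then decapped or degraded by the exosome. Zfp36, also called tristetraprolin, is an immediate early gene that limits inflammatory messages such as that of tumour necrosis factor, and mice without it develop a systemic inflammatory disease. Mouse embryos without Zfp36l1 die with vascular and placental defects, and Zfp36l2 is needed for blood formation and female fertility in mice.

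The values are intensities on a linear scale as deposited, and the sources used here do not say how values below 0 arose. On the 13 arrays the trimmed mean was 200.2 and the share of values at or below 0 was 21.3% to 24.2%. Fits used log2 intensities with a floor at an intensity of 36.7. Of the 5 probe sets of the family, 4 passed the filter on dim probe sets, as did 7453 probe sets in all. The tissue was checked by markers. The summed intensity of 8 aortic smooth muscle markers was 13594 to 22523 over the pools. Markers of tissues next to the aorta were also present. The sum of 7 adipocyte markers was 35548 (CT18) to 45563 (CT58), above the smooth muscle sum in every pool. Sums of different probe sets do not give the share of each tissue in the RNA. The sum of 11 skeletal muscle markers ranged from 5403 (CT54) to 27323 (CT34), that of 8 thymocyte markers from 494 (CT42) to 4596 (CT54), and that of 6 atrial markers from 3231 (CT30) to 10632 (CT42). Myh2 alone among the skeletal muscle markers, and Itgam alone among 11 leukocyte markers, stayed below the floor in every pool. In pooled tissue, fewer cells of a type and less RNA per cell cannot be told apart.

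Zfp36l1 and Zfp36 had a promoter in the RefSeq table of mouse assembly GRCm38.p6. The 250 bases before the start site of Zfp36l1 (chr12:80113014-80113263, minus strand) and of Zfp36 (chr7:28379229-28379478, minus strand) are shown because elements of the clock and of immediate early regulation were searched there. Capitals mark the matches.
Zfp36l1: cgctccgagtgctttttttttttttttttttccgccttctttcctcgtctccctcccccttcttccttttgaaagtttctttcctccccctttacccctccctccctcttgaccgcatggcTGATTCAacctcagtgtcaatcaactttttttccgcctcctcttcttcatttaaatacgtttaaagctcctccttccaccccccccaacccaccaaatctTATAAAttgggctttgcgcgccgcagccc
Zfp36: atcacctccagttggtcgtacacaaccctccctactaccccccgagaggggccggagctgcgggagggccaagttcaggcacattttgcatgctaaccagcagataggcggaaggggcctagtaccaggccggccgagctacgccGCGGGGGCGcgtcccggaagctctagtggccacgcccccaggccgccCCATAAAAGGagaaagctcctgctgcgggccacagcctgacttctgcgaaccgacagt
Both strands were searched for the E-box (CACGTG), its variant CACGTT, the D-box (TTANGTAA), the RORE, the CRE (TGACGTCA), the AP-1 site (TGANTCA), the CArG box, the EGR site (GCGNGGGCG), the NF-kB site and the TATA box (TATAAA). In the Zfp36l1 window the capitals are an AP-1 site, which 6.75% of 32851 promoter windows of this length hold, and a TATA box, held by 12.4%. In the Zfp36 window they are an EGR site (4.70% of windows) and, nearer to the start, a CArG box (1.47%). The E-box, its variant, the D-box, the RORE, the CRE and the NF-kB site had no match in either window, and 6.02%, 3.85%, 2.06%, 0.332%, 1.55% and 7.25% of all windows hold them. A match in these letters is a description of the sequence and not a binding site.

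Zfp36l2 and Zfp36l1 were high at opposite times of the circadian day. Zfp36l2 (probe set 160273_at) was 2.58-fold higher at CT6 than at CT22, and Zfp36l1 (93324_at) was 2.00-fold higher at CT2 than at CT10. Both orders recurred on both days. The fitted 24-h peaks were CT7.5 for Zfp36l2 and CT21.4 for Zfp36l1, which are 10.1 h apart. Zfp36 (92830_s_at) had a small fitted amplitude, and its highest pools were both at CT22.

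Zfp36l2 measured 635 and 531 on the CT18 arrays, 533 at CT22, 938 at CT26, 1235 at CT30, 1208 at CT34 and 593 at CT38. On the second day it measured 719.7 at CT42, 531 at CT46, 876 at CT50, 1515 at CT54, 1345 at CT58 and 828 at CT62. The 4 pools of CT6 and CT10 were above all the others on both days, and both CT22 pools were the lowest. By circadian time its mean was 1375 ± 199 at CT6, 1277 ± 96.9 at CT10, 907 ± 43.6 at CT2, 710.3 ± 166 at CT14, 651 ± 96.7 at CT18 and 532 ± 1.32 at CT22 (SD, n = 2 pools each). In this order CT6 and CT10 overlapped, as did CT14 and CT18, and the other neighbours did not. The second CT18 array alone, at 531, lay at the level of CT22, so the gap between CT18 and CT22 rests on the averaging of the duplicate arrays.

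The fitted 24-h curve of Zfp36l2 had an amplitude of 0.68 ± 0.09 (log2, distance from mean to peak, SE of the fit over 12 pools) and a peak at CT7.5 ± 0.48 h. The curve accounted for 86.0% of the variation in log2 intensity between pools. By amplitude it ranked 228 of 7453 probe sets. Fitted to each day separately, the amplitude was 0.70 with a peak at CT8.1 on the second day and 0.69 with a peak at CT6.8 on the first. The log2 values of the second-day pools correlated with those of the first-day pools 24 h earlier (r = 0.926 over 6 pairs), a description of values that the fit had already used.

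Both further probe sets of Zfp36l2 gave little signal. Probe set 93943_f_at, whose suffix marks probes shared by a family of similar sequences, was below 0 on all 13 arrays (-377 to -117) and has no level here. Probe set 93944_r_at, whose suffix marks probes chosen under relaxed rules, was at or below 0 on 5 arrays and ran from -294 at CT34 to 151 at CT54. The 24-h curve through it had an amplitude of 0.41 ± 0.27 and accounted for 16.99% of the variation between pools, of which 4 of 12 were at the floor. The fitted peak was CT7.1 on the second day and CT14.5 on the first, and the CT10 pools had the lowest mean, so this probe set gives no usable peak time.

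Zfp36l1 measured 1042 and 1048 on the CT18 arrays, 1247 at CT22, 1356 at CT26, 765 at CT30, 632 at CT34 and 801 at CT38. On the second day it measured 1208 at CT42, 1016 at CT46, 965 at CT50, 664 at CT54, 528 at CT58 and 978 at CT62. The CT6 and CT10 pools were the lowest 4 of 12. By circadian time its mean was 1161 ± 277 at CT2, 1132 ± 164 at CT22, 1127 ± 115 at CT18, 889.8 ± 125 at CT14, 715 ± 71.7 at CT6 and 580.4 ± 73.5 at CT10 (SD, n = 2 pools each). The pools of CT2, CT22 and CT18 overlapped and have no order among them. CT14, CT6 and CT10 each lay below the circadian time before it in this order without overlap, although 1 of the CT2 pools, CT50 at 965, lay below the CT62 pool at 978.

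The 24-h amplitude of Zfp36l1 was 0.50 ± 0.09 with a peak at CT21.4 ± 0.67 h, and the curve accounted for 75.3% of the variation between pools. Its peak was CT20.0 on the second day (amplitude 0.52) and CT22.6 on the first (0.54). The duplicate CT18 arrays differed by 0.01 on the log2 scale for Zfp36l1, against -0.26 for Zfp36l2 and -0.04 for Zfp36 (second array minus first).

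**Figure D1:**
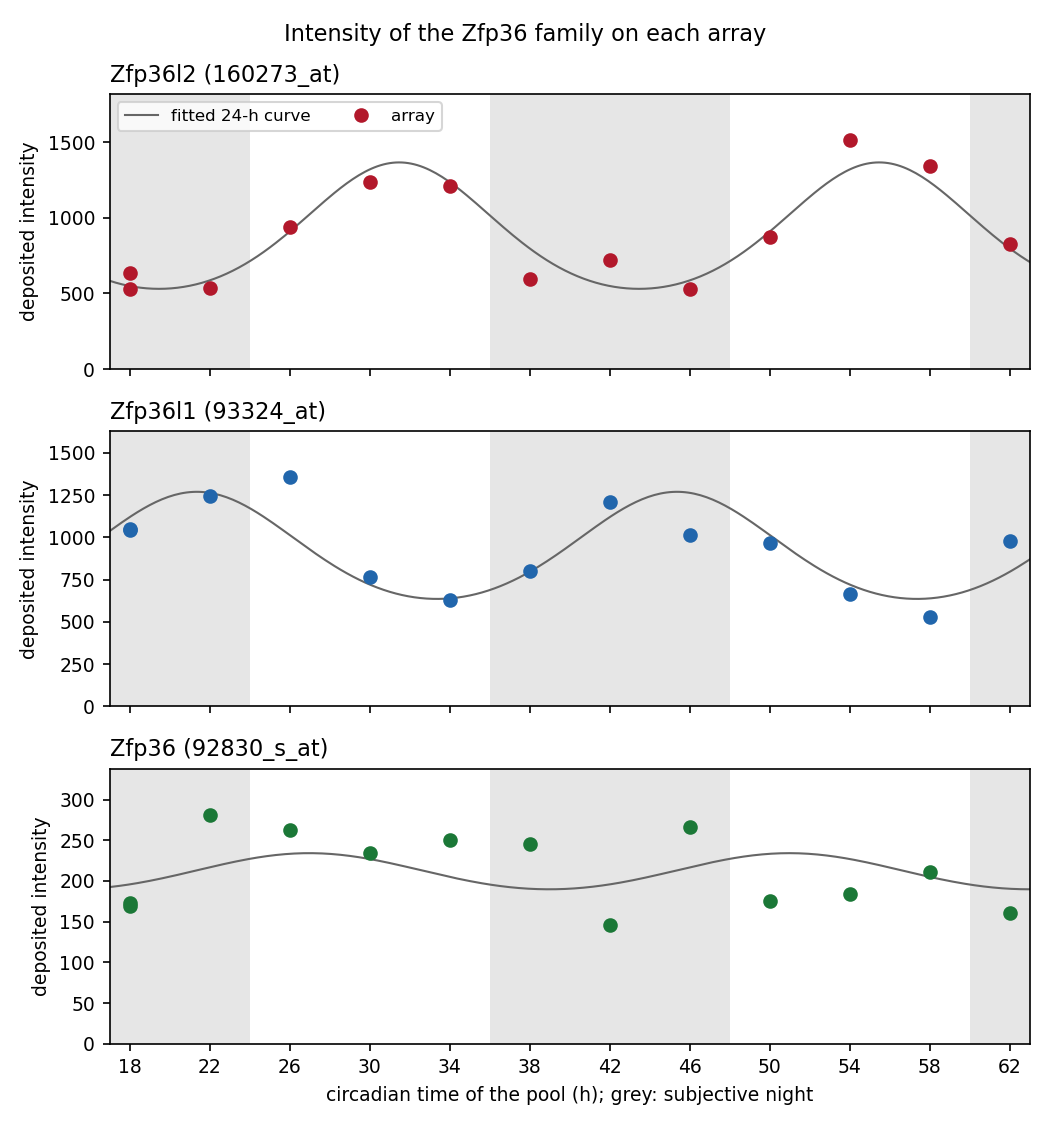
Deposited intensity (linear scale) of the brightest probe set of each member against circadian time, one point per array (2 at CT18), with the fitted 24-h curve as a grey line and subjective night shaded. Zfp36l2 is highest at CT54 (1515) and Zfp36l1 is lowest at CT58 (528), while the points of Zfp36 lie between 146 and 282 and do not follow their curve closely.

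Zfp36 measured 174 and 169 on the CT18 arrays, 282 at CT22, 263 at CT26, 234 at CT30, 249.9 at CT34 and 245 at CT38. On the second day it measured 146 at CT42, 267 at CT46, 176 at CT50, 184 at CT54, 210.5 at CT58 and 160.3 at CT62. Both CT22 pools were above every other pool. The mean was 274 ± 10.4 at CT22, 230.2 ± 27.9 at CT10, 219 ± 61.4 at CT2, 209 ± 35.4 at CT6, 203 ± 59.98 at CT14 and 159 ± 17.5 at CT18 (SD, n = 2 pools each). CT22 did not overlap with CT10, the next in order, and every later pair of neighbours overlapped. Its mean at CT22 was 1.73-fold that at CT18.

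The 24-h amplitude of Zfp36 was 0.15 ± 0.13 with a peak at CT3.0 ± 3.33 h, below the median amplitude of 0.18 over all probe sets kept. The curve accounted for 12.0% of the variation between its pools. The suffix of its probe set marks probes shared with other transcripts, which these data cannot separate.

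The opposition of Zfp36l2 and Zfp36l1 can be followed as the log2 ratio of their intensities within an array, centred on its mean over the pools. Since these are different probe sets, the ratio shows unequal change and not which message was more abundant. It averaged 1.22 ± 0.29 at CT10 and 1.02 ± 0.35 at CT6, against -1.002 ± 0.21 at CT22 and -0.72 ± 0.07 at CT18 (SD, n = 2 pools each). CT2 (-0.26 ± 0.28) and CT14 (-0.26 ± 0.14) lay between. The ratio at CT10 was thus 4.66-fold that at CT22. On the second day it was higher than on the first in all 6 pairs of pools 24 h apart, a difference that was not tested.

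Across the 12 pools the log2 values of Zfp36l2 and Zfp36l1 had r = -0.688, with -0.840 on the second day and -0.511 on the first (6 pools each). For Zfp36l2 and Zfp36 r was -0.127, and for Zfp36l1 and Zfp36 it was -0.018. These are descriptions over pools that share their arrays. Once each gene's own 24-h curve was removed, what was left of Zfp36l2 and Zfp36l1 had r = 0.11, and what was left of Zfp36l2 and Zfp36 had r = -0.713.

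**Figure D2:**
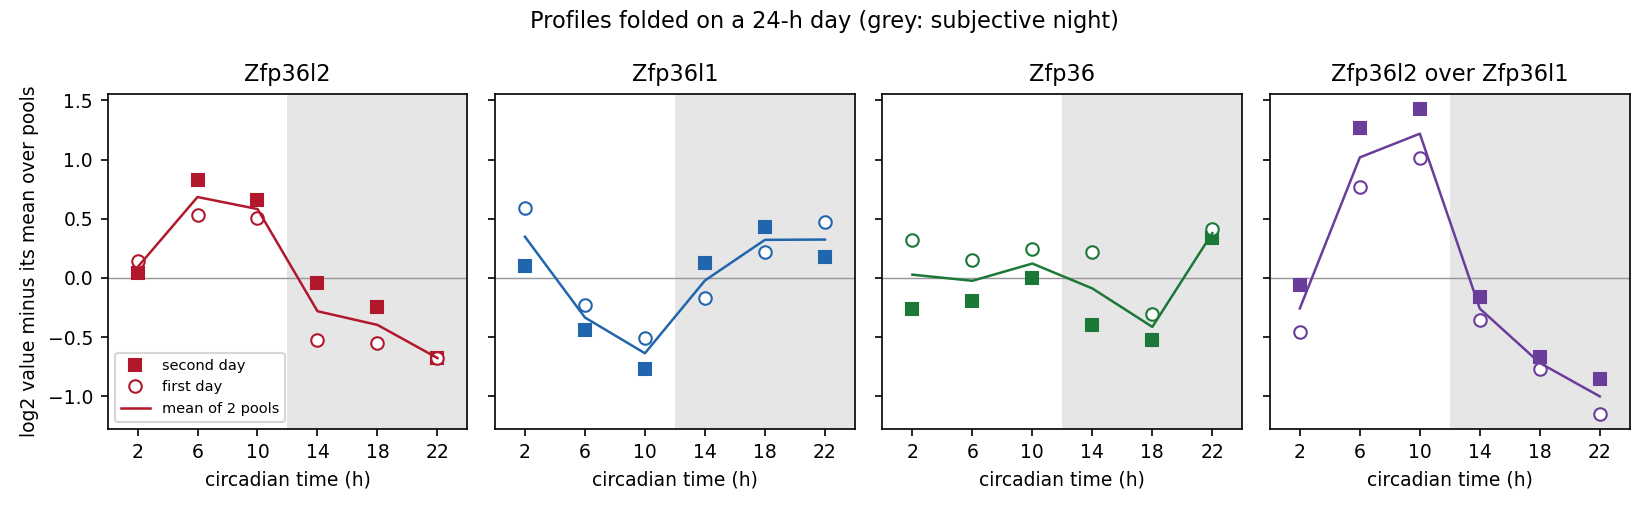
Log2 value minus its mean over 12 pools against circadian time for the 3 members and for the ratio of Zfp36l2 to Zfp36l1, with filled squares for pools of the second day, open circles for pools of the first day, a line through the mean of 2 pools and subjective night shaded. Zfp36l2 lies above its mean and Zfp36l1 below its own at CT6 and CT10 on both days.

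The marker levels of neighbouring tissues can be set beside these times. At CT10, where Zfp36l2 was high and Zfp36l1 lowest, the skeletal muscle sum was among the highest (19051 at CT58 and 27323 at CT34). At CT6, with Zfp36l2 also high, it was among the lowest (5403 at CT54 and 8280.5 at CT30), and at CT22 it was 13853 at CT46 and 10406 at CT22. The thymocyte sum was 4596 and 2957 at CT6 but 1660 and 1261 at CT10 (second day and first day). When the marker means of muscle, thymus and atrium entered the fit, the amplitude was 0.67 ± 0.08 for Zfp36l2 and 0.57 ± 0.10 for Zfp36l1. Without them it was 0.68 and 0.50. The peaks with them were CT8.7 ± 1.13 h and CT18.5 ± 0.87 h, against CT7.5 and CT21.4 without them. Endothelial, smooth muscle, adipocyte and leukocyte markers were not among the covariates. What the mix of tissues contributed to these profiles was not tested. For Zfp36 the amplitude with these covariates was 0.36 ± 0.35. The pool with the most Zfp36l1, CT26, also had the largest sums of endothelial markers (2781, against 1457 to 2145 in the other pools, for 8 markers) and of smooth muscle markers (22523). Of the smooth muscle markers, Eln itself passed the 24-h test (limma adjusted p = 0.0130), with a peak at CT2.1, near the circadian time of this pool. Without CT26 the amplitude of Zfp36l1 was 0.47 ± 0.07 and its peak CT20.7.

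The next comparison asks whether the family drifted with longer time in darkness, which the choice of the genes did not use. By limma, 0 of 7453 probe sets (0%) passed an adjusted p of 0.05 for the second day against the first, and 562 (7.54%) had an unadjusted p below 0.05. Zfp36 averaged 191 ± 43.2 on the second day and 241 ± 37.8 on the first (SD, n = 6 pools each). In 0 of 6 pairs of pools 24 h apart was the later one higher, and the difference was -0.35 ± 0.16 (log2, second minus first, SE; limma adjusted p = 0.670, unadjusted p = 0.0564). Zfp36l2 averaged 969 ± 380.1 and 848 ± 323 in the same order of days (0.19 ± 0.11, adjusted p = 0.709; higher in 4 of 6 pairs). Zfp36l1 averaged 893 ± 249.9 on the second day and 975 ± 289 on the first (-0.13 ± 0.12, adjusted p = 0.823; higher in 2 of 6 pairs). The dim Zfp36l2 probe set 93944_r_at differed by 0.86 ± 0.32 (adjusted p = 0.640; unadjusted p = 0.0187), mostly between values near the floor. None of these differences passed the threshold. With pools 24 h apart paired in the fit, an alternative chosen after seeing the data, 0 of 7453 probe sets passed and 601 (8.06%) had an unadjusted p below 0.05. In that fit Zfp36 differed by -0.35 ± 0.12 (adjusted p = 0.579, unadjusted p = 0.0199).

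A 12-h component and a change of the 24-h curve between the days were also fitted. The 12-h component takes up a departure from the 24-h cosine and need not be a second peak within each day. By limma 0 probe sets (0%) passed in either test, with 417 (5.60%) and 520 (6.98%) at an unadjusted p below 0.05. The 12-h amplitudes were 0.15 ± 0.08 for Zfp36l2, 0.18 ± 0.08 for Zfp36l1 and 0.27 ± 0.12 for Zfp36, with adjusted p of 0.930, 0.908 and 0.908. For Zfp36 the 12-h amplitude was larger than the 24-h one, a difference that was not tested. The adjusted p for a change of curve between the days was 0.834 for Zfp36l2, 0.760 for Zfp36l1 and 0.986 for Zfp36. A test with 1 pool per time point that misses its threshold does not show that the days were alike.

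The genes whose profiles were most like each member were found by Pearson's r over the 12 pools among 5652 genes. They were picked for that likeness, so no p is given. For Zfp36l2 they were Dbp, a clock-controlled transcription factor of the PAR bZIP family (r = 0.875), Akt1, a kinase of insulin and growth factor signalling (0.869), Ammecr1l (0.866), Cdkn1c, an inhibitor of cyclin-dependent kinases (0.864), and Pex19, which brings membrane proteins to peroxisomes (0.859). Their fitted peaks lay between CT7.1 (Ammecr1l) and CT8.6 (Cdkn1c). Dbp was at the floor in 7 of 12 pools and reached 445, while Akt1 stayed between 194 and 353. Of all genes compared, 21 had r above 0.8 with Zfp36l2.

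For Zfp36l1 the most similar genes were Nudt4, a diphosphoinositol polyphosphate phosphatase (r = 0.936), D2hgdh, which oxidises D-2-hydroxyglutarate (0.919), Elovl5, a fatty acid elongase (0.897), Cd34, a surface protein of endothelial and progenitor cells (0.870), and Gemin5, which binds small nuclear RNAs (0.868). Nudt4 ran from 923 to 2459 over the pools and Elovl5 from 1204 to 2364. D2hgdh was dim, between 27.7 and 69.6, with 2 pools at the floor. Their peaks lay between CT20.4 (D2hgdh) and CT22.2 (Cd34), and 14 genes had r above 0.8 with Zfp36l1.

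For Zfp36 the most similar genes were Atp13a2, a lysosomal ATPase (r = 0.935), Nedd4, a ubiquitin ligase (0.865), Ccni, which encodes cyclin I (0.811), Plekha5 (0.809) and Odf1, a protein of the sperm tail (0.7795). Atp13a2 ran from 78.3 to 279 with both CT22 pools among its highest 4. The probe sets of Nedd4 and Ccni carry the suffix for probes shared by a family, and both varied little, Nedd4 from 2289 to 2690 and Ccni from 1442 to 1931. Their 24-h amplitudes were 0.03 ± 0.04 and 0.02 ± 0.06. Their r with Zfp36 was 0.721 and 0.719 on the second day and 0.927 and 0.902 on the first. For Odf1 r was 0.899 on the second day and 0.096 on the first. Only 4 genes had r above 0.8 with Zfp36.

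**Figure D3:**
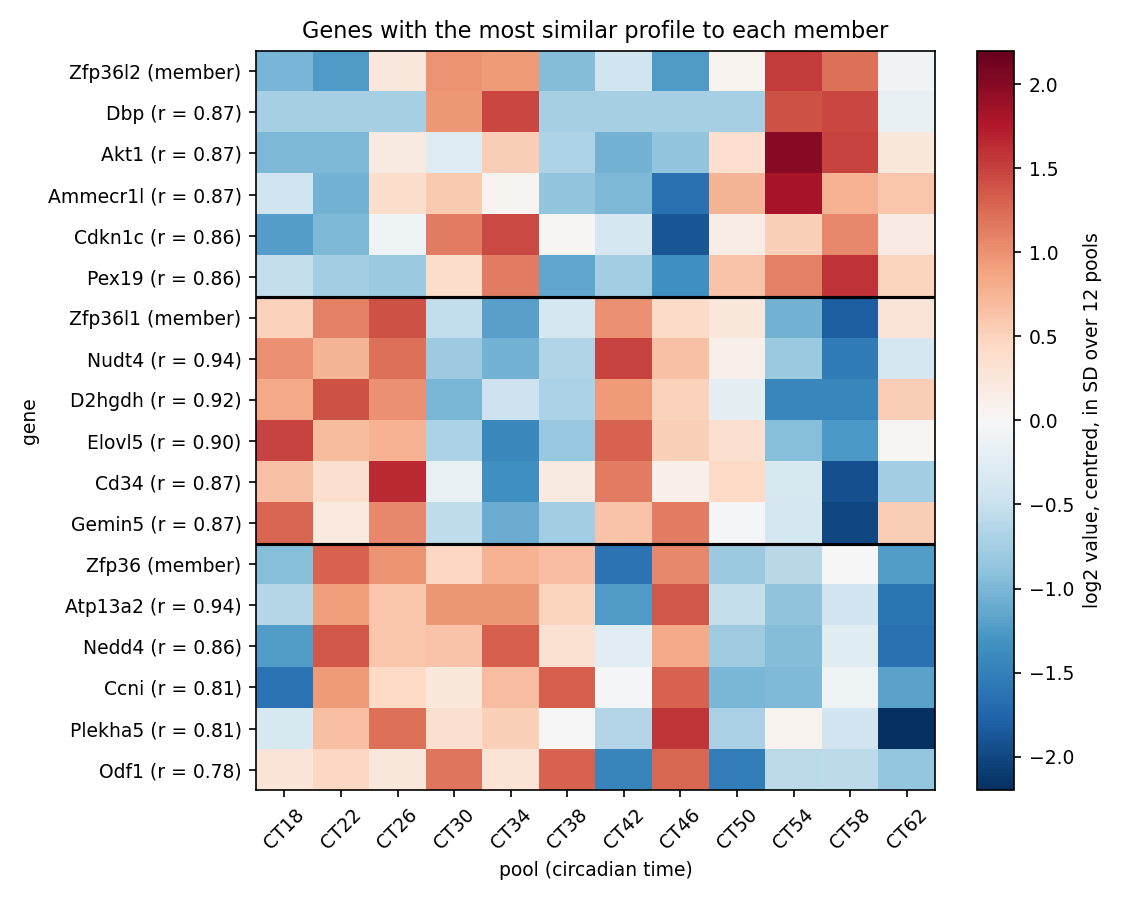
Log2 values of each member and of the 5 genes most like it over the 12 pools, centred and divided by their SD, with red above and blue below the gene's mean and r in brackets. At CT30, CT34, CT54 and CT58 the row of Zfp36l2 is red and all 6 rows of the middle block are blue, and the row of Zfp36 is blue at CT18, CT42 and CT62.

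The machinery that the family recruits or competes with was read from 5 lists. In the 24-h test over all probe sets, 26 of 7453 (0.349%) passed, and at an unadjusted p below 0.05 there were 568 of the 5652 genes outside the family (10.05%), whose median amplitude was 0.18. Of 54 genes kept in the 5 lists, 0 passed the limma test and 5 had an unadjusted p below 0.05. Deadenylation factors had 0 of 8 genes at that level and a median amplitude of 0.14. The smallest p belonged to Pabpc1, the main poly(A)-binding protein (1656 to 2430 over the pools; amplitude 0.14 ± 0.05, CT8.6), Tob1, an adaptor of CCR4-NOT (864 to 2392; 0.34 ± 0.13, CT5.4), and Cnot3, a subunit of that complex (199 to 364; 0.20 ± 0.09, CT22.4). Their adjusted p was 0.556, 0.556 and 0.631. Decapping factors had 0 of 8 (median amplitude 0.14), led by Lsm1, which activates decapping (75.7 to 168; 0.38 ± 0.14, CT5.6, adjusted p = 0.512), with the decapping helicase Ddx6 and Lsm7 next (adjusted p = 0.732 and 0.739). The exosome list had 0 of 5 (median amplitude 0.13), led by the subunits Exosc5 (0.34 ± 0.13, CT21.1, adjusted p = 0.551), Exosc4 (adjusted p = 0.722) and Exosc8 (0.792).

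Among other proteins that bind AU-rich elements or 3' untranslated regions, 3 of 15 had an unadjusted p below 0.05 and 0 passed (median amplitude 0.17). They were Fxr1, a relative of the fragile X protein (60.7 to 178; 0.49 ± 0.13, CT15.4, adjusted p = 0.306), Ncl, nucleolin (569 to 908; 0.22 ± 0.06, CT9.3, adjusted p = 0.353), and Hnrnpab (249 to 465; 0.27 ± 0.08, CT22.2, adjusted p = 0.399). Of 18 kinases, phosphatases and 14-3-3 proteins that control the family, 2 had an unadjusted p below 0.05. That share of 11.1% is near the 10.05% of all genes outside the family. In this list 0 passed the threshold, and the median amplitude was 0.12. Both of the 2 were AKT kinases, which phosphorylate ZFP36L1 in human cells. Akt1 had an amplitude of 0.32 ± 0.09 at CT7.5 (adjusted p = 0.329), and Akt2, which ran from 536 to 1320.1, had 0.42 ± 0.13 at CT6.5 (adjusted p = 0.388). Map2k6, a kinase that activates p38, followed (0.58 ± 0.22, CT20.7, adjusted p = 0.530) and was at the floor in 2 pools.

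Of messages known as targets of the family, 30 of 34 were on the array and 14 passed the filter on dim probe sets. Of these 14, 1 passed and 4 (28.6%) had an unadjusted p below 0.05, with a median amplitude of 0.21. Such a p was held by 10.05% of all genes outside the family. Pim1, a kinase whose message ZFP36 destabilises in human cells, passed narrowly (752 to 1298 over the pools, median 1043; amplitude 0.35 ± 0.06, CT4.9, limma adjusted p = 0.0484). It passed in 3 of 22 alternatives, with adjusted p from 0.0340 to 0.420, and of the 13 fits without an array or time point it passed only without CT26. The other 3 were the kinase Pim3 (1.26 ± 0.24, CT7.2, adjusted p = 0.0950, with 3 pools at the floor), Ier3 (1.15 ± 0.33, CT9.4, adjusted p = 0.364, 3 pools at the floor) and Fos (0.65 ± 0.22, CT1.4, adjusted p = 0.466), chosen for mention after their values were seen. All 4 fitted peaks fell in subjective day, as did 286 of the 568 genes outside the family at that level. Cdkn1a, a target just outside it and also named after its values were seen (unadjusted p = 0.0502), peaked at CT19.1 in subjective night.

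The family also belongs among genes that respond to stimuli, so 2 such lists were read. Of 21 immediate early genes kept, 0 passed and 7 (33.3%) had an unadjusted p below 0.05 (median amplitude 0.27). Over all genes outside the family the share was 10.05%. Ier3 and Fos are among these 7 and were already counted with the target messages, so the lists are not separate observations. The smallest p belonged to Ccn2, a matricellular growth factor (385 to 1485; 0.70 ± 0.13, CT17.5, adjusted p = 0.0941), Nr4a1, a nuclear receptor (amplitude 1.90 ± 0.42, CT4.9, adjusted p = 0.166, 3 pools at the floor), and Klf6, a zinc finger transcription factor (0.26 ± 0.07, CT13.7, adjusted p = 0.293). Of 15 glucocorticoid responsive genes, 0 passed and 4 (26.7%) had an unadjusted p below 0.05 (median amplitude 0.35). This list shares Cdkn1a with the targets and Dusp1 with the immediate early genes. Cebpb, a transcription factor of the acute response (0.35 ± 0.07, CT7.5, adjusted p = 0.118), Fkbp5, a chaperone partner of the glucocorticoid receptor (1.28 ± 0.38, CT15.0, adjusted p = 0.378), and Zbtb16 (1.12 ± 0.37, CT16.5, adjusted p = 0.463) had the smallest p. For the second day against the first, 0 genes passed in either direction in any of these lists.

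**Figure D4:**
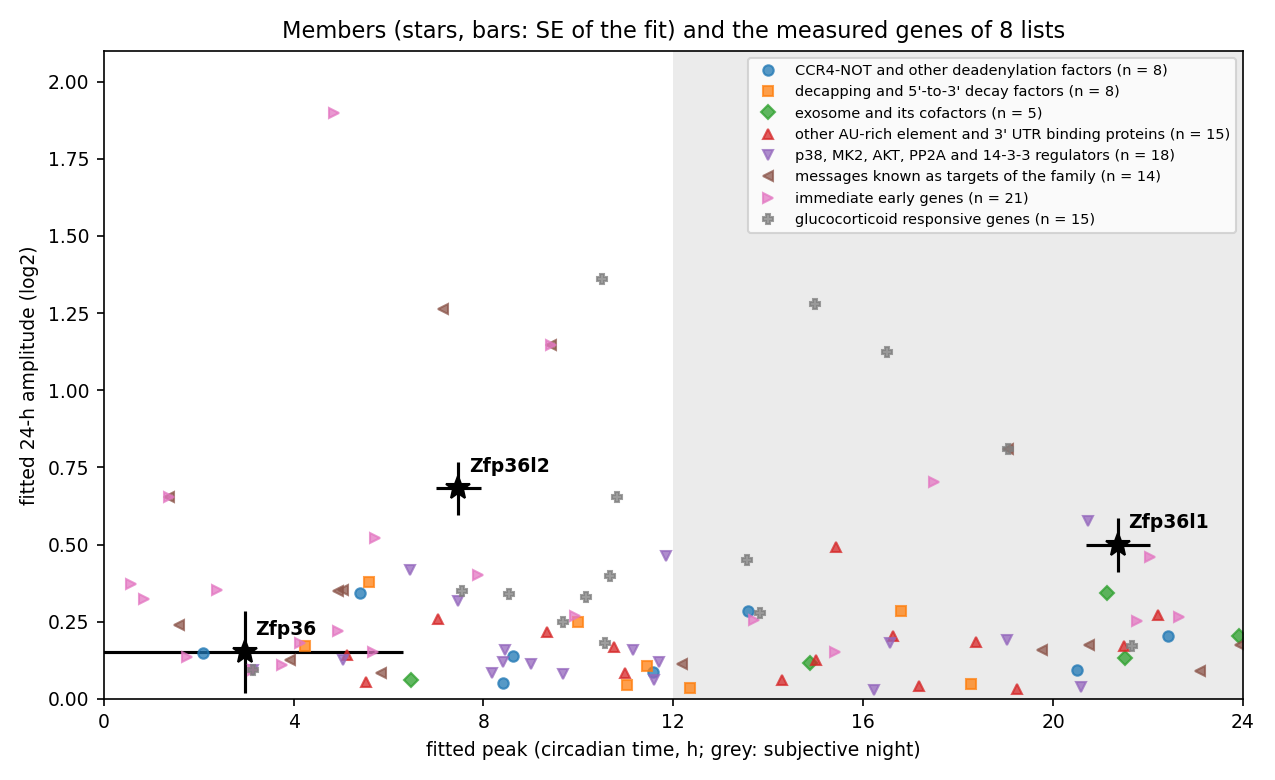
Fitted 24-h amplitude (log2) against fitted peak time for the kept genes of 8 lists (one symbol per gene, a colour and shape per list) and for the 3 members (black stars, bars for the SE of the fit), with subjective night shaded. Zfp36l2 (0.68 at CT7.5) and Zfp36l1 (0.50 at CT21.4) lie above most genes of the decay lists, and Zfp36 (0.15 at CT3.0) lies among them.

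Each member was also set against the mean profile of 8 lists over the 12 pools, 24 relations in all. After adjustment by the Benjamini-Hochberg method, 0 passed for Pearson's r or Spearman's rho (permutation tests, two-sided), and 1 and 2 had an unadjusted p below 0.05. Zfp36l1 against endothelial markers had r = 0.640 (permutation p = 0.0250, adjusted p = 0.572) and rho = 0.622 (permutation p = 0.0356, adjusted p = 0.428). Without the 2 pools farthest from the median of the marker mean r was 0.398, and it was 0.327 on the second day and 0.854 on the first, so the relation rests on few pools. Nor did all markers share it. Their own r with Zfp36l1 was 0.778 (Cldn5, at the floor in 1 pool), 0.486 (Cdh5), 0.304 (Pecam1), 0.046 (Kdr), -0.097 (Tek), -0.108 (Vwf) and -0.231 (Tie1). Zfp36l2 against immediate early genes had r = 0.520 (permutation p = 0.0851, adjusted p = 0.572) and rho = 0.657 (permutation p = 0.0228, adjusted p = 0.428), and r was 0.475 without the 2 farthest pools. Zfp36, itself an immediate early gene, had r = 0.334 with the same list (permutation p = 0.286, adjusted p = 0.646) and rho = 0.245 (permutation p = 0.443). Without the 2 farthest pools its r was 0.363. Pools of a time series are not in random order, which these permutations assume. The profiles of the members also contain the 24-h curves by which they were chosen, so these p are not free of that choice.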

How the data were processed

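The deposited table holds intensities on a linear scale, a value for each probe set on each array. Neither the software nor the scaling behind them is named in the sources used here. The trimmed mean (2% at each end) did not differ between arrays, and the authors' intensities were used with no further scaling. Of 12488 probe sets 66 were controls and were left out. The platform annotation named 1 gene for 10833, several for 396. Gene identifiers of all 3 members were in the RefSeq table (GRCm38.p6).

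Values below the 20th percentile of positive values (36.7) were set to that floor, log2 was taken, CT18 arrays were averaged, and probe sets at or above the 40th percentile of mean log2 (5.60) were kept. With limma 3.58.1 in R 4.3.3 (moderated tests, intensity trend, Benjamini-Hochberg over 7453 probe sets, threshold 0.05), a 24-h cosine was fitted (9 residual degrees of freedom). Day, 12-h and curve differences were tested with the lower terms as covariates (8, 7 and 6). Correlations used 100000 permutations. Pools are single, so p-values measure the spread around the curve. The number of arrays limits the precision. The fits were tested on simulated data.

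Members and lists were chosen with earlier results of these data known. The text names every probe set of the family, the 5 genes most like each member by r, and, per list, members past the threshold or else the 3 with the smallest p. A gene is read from its brightest probe set. Alternatives were the floor, the filter, array centring or quantile normalization, no variance trend, tissue markers as covariates, and leaving out each array or time point. Leaving out 3 pools rich in skeletal muscle markers (CT18, CT34 and CT58), and a day test with circadian time as a block (5 residual degrees of freedom), were added after seeing the data.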

Additional observations from a re-analysis of the deposited data

How the results depend on the processing

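The amplitude of Zfp36l2 was 0.64 to 0.76 and that of Zfp36l1 0.42 to 0.57 over 21 alternatives, each within 1 SE of the value reported. The floor and filter settings could not move these amplitudes, because both probe sets were above the floor on every array and were kept by each filter. When 1 array or time point was left out the ranges were 0.64 to 0.76 for Zfp36l2, 0.44 to 0.57 for Zfp36l1 and 0.10 to 0.24 for Zfp36. With tissue markers as covariates the amplitude of Zfp36 was 0.36. In the same fit the peak was CT8.7 for Zfp36l2 and CT18.5 for Zfp36l1, against CT7.5 and CT21.4 in the main fit. The day differences of the brightest probe set of each gene kept their sign in all 22 alternatives, the pairing of pools 24 h apart included, which gave 0 day calls. That pairing could not change a difference, only its SE and p, because every circadian time has 1 pool on each day. The floor could not either, since these probe sets were above it on every array. The filter and the variance trend also change only the SE and p. The 26 probe sets with a 24-h rhythm became 3 with the floor at the 40th percentile, where the filter kept all 12422, 4 with no filter, 5 with arrays centred on their medians, 4 without a variance trend, 9 with tissue markers, and 4 without the 3 muscle-rich pools. Leaving out 1 array or time point gave 8 to 39, with 10 without CT34, 9 without CT42, 17 without CT46, 8 without CT54, 14 without CT58 and 13 without CT62. The cause of these falls was not tested. Under the same omissions, day calls ran from 0 to 2 (2 without CT42, 1 without CT58) and 12-h calls from 0 to 1 (1 without CT34 or CT54), none of them in the family. With no filter 1 probe set passed for 12 h, and with the floor at the 40th percentile 1 passed for a difference in curve between the days. The 24 correlations gave 0 adjusted calls in 18 alternatives, leaving out arrays included (0 to 0). By replicate number, no paired analysis was possible because that number marks the first array of every time point. Values near the floor limit what the dim probe sets can show.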
